A study of Mus musculus with 38 samples.

Results

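The genes described here are the 9 AP-1 family genes *Jun*, *Junb*, *Jund*, *Fos*, *Fosb*, *Fosl1*, *Fosl2*, *Atf3* and *Batf3*. They were taken by symbol, and all 9 are present among the 35976 genes of the FPKM table of the time courses, the 37108 genes of the FPKM table of the factor sets and the 20695 genes of the single-cell count table. AP-1 is a DNA-binding dimer of basic leucine zipper proteins, in which a JUN protein pairs with a FOS, ATF or BATF protein or with another JUN protein. JUN, JUNB and JUND are the JUN subunits, FOS, FOSB, FOSL1 (FRA-1) and FOSL2 (FRA-2) are the FOS subunits, ATF3 is a stress-induced member that often represses, and BATF3 is a member best known from dendritic cells. *Fos*, *Fosb*, *Junb* and *Atf3* are immediate-early genes that growth signals or stress switch on within minutes, and fibroblasts hold many enhancers with AP-1 sites. JDP2, a factor delivered to the cells of this study, pairs with JUN proteins and is known as an AP-1 antagonist.

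The study asked how BMP4 and SALL4 direct mouse embryonic fibroblasts (MEFs) towards pluripotency or towards a primitive endoderm-like fate. MEFs of E13.5 embryos, from a cross of OG2 males, which carry *Oct4*-GFP, with females of another strain, received retroviral (pMXs) *Jdp2*, *Glis1* and *Esrrb* (JGE), the same with *Sall4* (JGES), with *Oct4* (JGEO) or with both (JGESO), and were kept in a chemically defined medium called iCD3. BMP4, where it was given, was at 10 ng/ml. In a separate experiment MEFs received only *Sall4*, as SALL4-WT or as SALL4-delN12, a form that lacks the N-terminal stretch through which SALL4 works with the NuRD complex, in iCD3 without BMP4. Bulk RNA-seq covered JGES at day 0, at days 1, 3, 5 and 7 without and with BMP4, JGE, JGEO and JGESO at day 7 without and with BMP4, and both SALL4 forms at days 1, 5, 9 and 11. Day 0 of JGES came after the infection, so it already carried the delivered factors and is not an uninfected MEF. Single cells were taken from JGES at day 7 with and without BMP4, ATAC-seq from MEFs and from both SALL4 forms at their 4 days, and CUT&Tag of SALL4 and of H3K27ac, a mark of active promoters and enhancers, from both forms at day 6. The labels do not say how many embryos the MEFs came from.

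Sequence upstream of the *Fos* and *Jun* group is shown first, since it holds the elements by which these genes answer to signals and to bZIP proteins themselves. All sequences are from the RefSeq genome GRCm38.p6, the build of the peak files, and are given 5′ to 3′ on the strand of the gene, with positions counted from the first transcribed base. The promoter table of RefSeq matched 8 of the 9 genes. The sequence of *Fos* (chr12:85473550-85473689, plus strand) starts at position -340, and that of *Fosb* (chr7:19310232-19310371, minus strand) at -320. In both, the capitals mark a CArG box, the element that binds serum response factor, and a TGCGTCA that follows it. *Jun* (chr4:95052223-95052342, minus strand, from -120) has TGACATCA in capitals, and *Jund* (chr8:70698669-70698788, plus strand, from -280) has TGACGTCA in capitals, the element bound by CREB and ATF proteins.
Fos: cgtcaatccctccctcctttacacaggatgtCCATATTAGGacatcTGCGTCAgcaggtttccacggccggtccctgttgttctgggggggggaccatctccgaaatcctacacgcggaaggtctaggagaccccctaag
Fosb: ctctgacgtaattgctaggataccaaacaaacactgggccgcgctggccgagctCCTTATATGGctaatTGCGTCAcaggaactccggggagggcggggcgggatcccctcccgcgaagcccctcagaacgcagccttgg
Jun: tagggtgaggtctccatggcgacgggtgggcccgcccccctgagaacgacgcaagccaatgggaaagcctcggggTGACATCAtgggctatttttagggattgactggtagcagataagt
Jund: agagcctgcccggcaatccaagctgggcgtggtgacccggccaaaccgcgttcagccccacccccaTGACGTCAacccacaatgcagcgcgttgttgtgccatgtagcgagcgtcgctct

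In *Fos* the CArG box began at -309 and the TGCGTCA at -294, and in *Fosb* they began at -266 and -251, so that 5 bases lay between them in both genes. Among 21827 protein-coding genes, *Fos* and *Fosb* were the 2 genes with a CArG box followed by TGCGTCA at that distance within 1 kb upstream, a search that was chosen after both sequences had been seen. The TGACATCA of *Jun* began at -45 and the TGACGTCA of *Jund* at -214. Within 1 kb upstream of 41409 transcription starts, a CArG box was found at 5.35%, TGCGTCA or its reverse complement TGACGCA at 4.18%, TGACATCA or TGATGTCA at 5.68% and TGACGTCA at 2.85%. None of the 9 genes had the AP-1 heptamer itself, TGAGTCA or TGACTCA, within 1 kb upstream of an annotated start, where 14.5% of all starts have it. An ATAC peak covered the marked elements of *Fos*, *Fosb*, *Jun* and *Jund* in 9 of 9 libraries.

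The heptamer was found inside the first part of *Fosl1*, in an intron (chr19:5448826-5448885, plus strand). It was also found upstream of *Mmp13*, *Mmp10* and *Plaur*, genes known as AP-1 targets that are described with the results. The sequences of *Mmp13* (chr9:7272434-7272513, from -80) and *Mmp10* (chr9:7502232-7502311, from -120), both on the plus strand, are shown. The capitals mark the heptamer, which began at 1309 in *Fosl1*, at -35 in *Mmp13* and at -73 in *Mmp10*. In *Plaur*, whose sequence is not shown, it began at -70.
Fosl1: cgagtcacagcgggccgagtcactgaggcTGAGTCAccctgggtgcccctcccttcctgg
Mmp13: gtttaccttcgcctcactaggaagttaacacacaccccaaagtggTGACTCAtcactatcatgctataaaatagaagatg
Mmp10: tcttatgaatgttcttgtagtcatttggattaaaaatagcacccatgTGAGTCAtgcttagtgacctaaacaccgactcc

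Each RNA or ATAC condition is 1 library, so none of these values has a replicate, and each list of CUT&Tag peaks comes from pooled replicates. No test between conditions was run, since the matched days of a course are not replicates of a condition. FPKM scales the fragments of a gene to its transcript length and to the mapped reads of the library, and changes are differences of log2(FPKM + 1). A gene was called higher or lower when this difference was at least 2-fold and the FPKM was at least 1 in either library, and the share of all genes called in the same pair of libraries is given beside each count. A gene under 1 FPKM in 1 library of a pair can only be called towards the other library, so the direction of such a call is set by the minimum. The numbers of reads behind the FPKM values are not given. From the steps between low values, the 9 JGES libraries had 0.88 to 1.07 times the depth of JGES day 0, and the SALL4-alone libraries 2.98 to 6.55 times. In the table of the factor sets the JGES pair had 0.17 and 0.18 times the depth of JGE without BMP4, against 0.90 to 1.25 times in the other libraries, so the set of libraries and the factor set cannot be told apart there. *Sall4* was at 194 to 712 FPKM in the JGES libraries, at 290.3 to 549 FPKM with SALL4-WT and at 428 to 971 FPKM with SALL4-delN12, against 2.09 and 6.23 FPKM in JGE. In bulk RNA, fewer cells of a type and less RNA per cell cannot be told apart.

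Without BMP4, 4 AP-1 genes fell between day 0 and day 7 of JGES, *Junb*, *Fos*, *Fosl1* and *Fosl2*, and *Batf3* rose from a level listed at 0. The change was largest in *Junb*, which lost most of its RNA by day 5, while *Jund*, the most abundant member from day 3 on, passed no threshold. Of the 8 members tested, 1 was higher and 4 were lower, where 32.5% of 15004 genes were called, 22.2% higher and 10.4% lower. The members had a median change of -1.02, and all genes tested one of 0.26. The call of *Batf3* rests on 1.07 FPKM at day 7. With libraries scaled to the same median ratio it fell under the minimum, which left 0 higher and 4 lower of 7 tested, where 31.3% of genes were called. The summed FPKM of the 9 genes was 474 at day 0 and 177 at day 7.

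*Junb* (ENSMUSG00000052837, chromosome 8, 84974484 to 84978718) was at 240.0 FPKM at day 0 and at 190.0, 64.2, 32.2 and 29.0 FPKM at days 1, 3, 5 and 7. Each day lay below the day before it, and the day 7 value fell by 3.01 on the log2 scale from day 0. *Jun* (ENSMUSG00000052684, chromosome 4, 95049034 to 95052222) was at 43.9 FPKM and then at 38.2, 26.5, 18.7 and 28.1 FPKM. Its change was -1.19 at day 5, past 2-fold, and -0.63 at day 7. *Jund* (ENSMUSG00000071076, chromosome 8, 70698949 to 70700616) was at 145 FPKM at day 0 and at 117, 113, 106 and 106 FPKM afterwards, a change of -0.46 at day 7. An antisense gene, *Gm11175*, shares exonic bases with *Jund*, and reads of the pair cannot be told apart without strand.

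Among the FOS subunits, *Fos* (ENSMUSG00000021250, chromosome 12, 85473890 to 85477273) was highest at day 1. It was at 20.7 FPKM at day 0, at 45.9 FPKM at day 1 and at 11.4, 4.96 and 4.73 FPKM at days 3, 5 and 7. The change from day 0 was 1.11 at day 1 and -1.92 at day 7. *Fosl2* (ENSMUSG00000029135, chromosome 5, 32135801 to 32157842) dropped before the other members, from 11.8 FPKM at day 0 to 3.66 FPKM at day 1 and 3.18, 1.5 and 2.14 FPKM later. *Fosl1* (ENSMUSG00000024912, chromosome 19, 5447547 to 5455946) was at 9.45 and 8.38 FPKM at days 0 and 1 and at 1.62, 1.66 and 2.91 FPKM from day 3 on. The day 7 changes of *Fosl2* and *Fosl1* were -2.03 and -1.42. *Fosl1* overlaps exons of *Ccdc85b* on the other strand. *Fosb* (ENSMUSG00000003545, chromosome 7, 19302696 to 19310051) was at 0.159 to 0.349 FPKM in the 5 libraries, under the minimum for a call.

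*Atf3* (ENSMUSG00000026628, chromosome 1, 191170296 to 191218039) did not follow the FOS and JUN subunits. It was at 2.04 and 1.15 FPKM at days 0 and 1 and at 4.02, 4.30 and 3.28 FPKM at days 3, 5 and 7, a change of 0.49 at day 7 that missed the threshold. *Batf3* (ENSMUSG00000026630, chromosome 1, 191097847 to 191108945) was listed at 0 at days 0, 1 and 3 and at 0.442 and 1.07 FPKM at days 5 and 7. With BMP4 the same comparison of day 7 with day 0 gave 1 member higher, *Batf3*, and 1 lower, *Junb*, of 8 tested, where 17.5% of 14549 genes were called higher and 9.47% lower, so the count is near the share of all genes. *Batf3*, listed at 0 at day 0, could only be called higher. The change of *Junb* was -1.36.

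**Figure D1:**
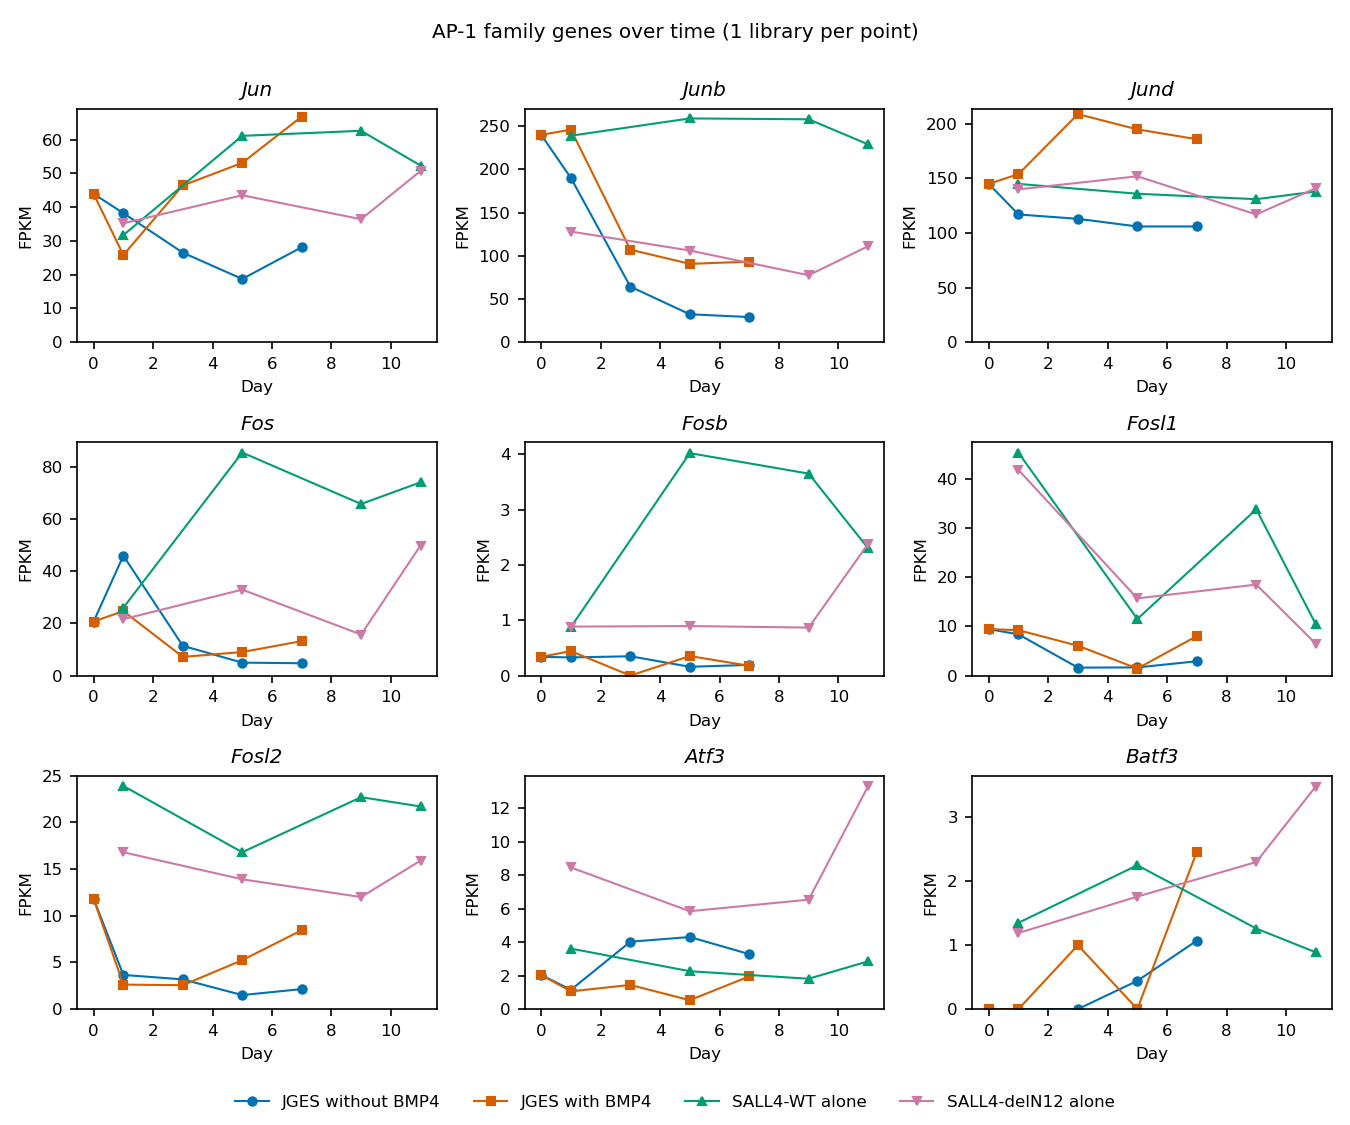
FPKM of the 9 AP-1 family genes (vertical axes, linear from 0, a scale of its own in each panel) by day of JGES without BMP4, JGES with BMP4, SALL4-WT alone and SALL4-delN12 alone. Each point is 1 library, and both JGES lines start at the same day 0 library. *Junb* stays between 229 and 259 FPKM with SALL4-WT, is at 77.4 to 128 FPKM with SALL4-delN12 and reaches 29.0 FPKM in JGES without BMP4.

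The genes around AP-1 were read from lists of known members. Of 13 AP-1 target genes tested in JGES without BMP4, 2 were higher and 8 lower at day 7 than at day 0, with a median change of -1.69. The protease gene *Plau* was at 69.3 FPKM at day 0 and 3.02 FPKM at day 7, and *Cd44*, which codes for a hyaluronan receptor, at 23.7 and 1.86 FPKM. Of 14 immediate-early companions, 1 was higher and 8 were lower (median -1.25), among them *Egr1* at 137 and 8.31 FPKM and *Cyr61* at 739 and 71.0 FPKM. The serum response factor gene *Srf* was at 32.2 and 13.7 FPKM and was 1 of 3 genes called lower, with 0 higher, among 14 upstream kinases and cofactors (median 0.05). Of 9 dissociation and heat shock genes 1 was higher and 3 were lower (median -0.49), and of 7 feedback phosphatases and inhibitors 2 were higher and 2 lower (median 0.10).

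Marker genes of fibroblasts moved over the same days. Of 8 fibroblast markers 7 were lower at day 7 than at day 0, and their summed FPKM was 1338 at day 0 and 273, 74.6, 53.8 and 74.3 at days 1, 3, 5 and 7 without BMP4, with 0 of 8 markers at 0 in these libraries. The 8 pluripotency markers tested were all higher at day 7 than at day 0, with a summed FPKM of 997. *Jdp2*, the delivered antagonist, was at 375 FPKM at day 0 and at 947, 740.1, 309 and 234 FPKM at days 1, 3, 5 and 7. Delivered and endogenous *Jdp2* share these rows. The part of cell makeup or of *Jdp2* in the AP-1 values was not tested.

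With BMP4, 5 of the 8 AP-1 genes tested were higher in JGES at day 7, *Jun*, *Junb*, *Fos*, *Fosl1* and *Fosl2*, and none was lower past the threshold. At day 1 no member of 7 tested was called, where 9.48% of genes were, and at day 3 *Fosl1* and *Batf3* were higher and *Atf3* lower of 8 tested, where 15.8% of genes were called. *Batf3* reached the minimum only with BMP4. With scaled libraries only *Fosl1* was called at day 3, of 7 tested, where 15.5% of genes were. At day 5 *Jun*, *Junb* and *Fosl2* were higher and *Atf3* was lower of 7 tested, where 22.0% of genes were called, and *Atf3* reached the minimum only without BMP4. At day 7, 24.1% of 15347 genes were called, 10.3% higher and 13.8% lower, with a median of -0.14 over all genes and of 1.21 over the members.

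*Jun* with BMP4 was at 25.8, 46.4, 53.1 and 66.8 FPKM at days 1, 3, 5 and 7, so it went up while the series without BMP4 was at 38.2, 26.5, 18.7 and 28.1 FPKM. The values with BMP4 were below those without at day 1 and above them at the other days, with a difference of 1.22 at day 7. *Junb* with BMP4 was at 246, 107, 90.6 and 93.1 FPKM at the same days. It was above the library without BMP4 at each of the 4 days, by 0.37, 0.73, 1.47 and 1.65, and still below day 0 from day 3 on. *Jund* was at 154, 209, 195 and 186 FPKM with BMP4, each value above every value without BMP4, with differences of 0.39 to 0.89 that passed no threshold.

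*Fos* with BMP4 was at 24.7, 7.16, 9.01 and 13.2 FPKM at days 1, 3, 5 and 7. It was lower with BMP4 at days 1 and 3 and higher at days 5 and 7, when the difference reached 1.31. *Fosl2* with BMP4 was at 2.62, 2.56, 5.24 and 8.44 FPKM, close to the series without BMP4 at days 1 and 3 and above it by 1.32 and 1.59 at days 5 and 7. *Fosl1* was at 9.23, 6.07, 1.43 and 8.03 FPKM with BMP4. Its order of days was uneven, with differences of 1.43 at day 3, -0.13 at day 5 and 1.21 at day 7. *Fosb* was at 0.442, 0, 0.353 and 0.177 FPKM with BMP4 and could not be called.

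*Atf3* was the member that went the other way. It was at 1.06, 1.44, 0.530 and 1.95 FPKM with BMP4, below the library without BMP4 at all 4 days, and the difference was -1.04 at day 3 and -1.79 at day 5. *Batf3* was listed at 0 at days 1 and 5 and was at 1.00 and 2.46 FPKM at days 3 and 7 with BMP4, so its values rest on low levels. Of 14 AP-1 target genes tested at day 7, 9 were higher with BMP4 and none was lower (median 1.43). The gelatinase gene *Mmp9* was at 148 FPKM with and 14.8 FPKM without BMP4, *Cd44* at 19.8 and 1.86 FPKM, and the urokinase receptor gene *Plaur* at 19.0 and 2.67 FPKM. The immediate-early companions did not move with them: 0 of 14 were higher and 1 was lower, with a median of 0.20. Of the 8 fibroblast markers 4 were higher and 0 lower with BMP4, with a sum of 671 FPKM, and of the 8 pluripotency markers 8 were lower, with a sum of 43.3 FPKM. Primitive endoderm markers summed to 985 FPKM with and 343 FPKM without BMP4, 3 of 8 being higher and 0 lower, and placenta-like markers to 255 and 89.9 FPKM, 4 of 7 tested being higher and 2 lower. The primitive endoderm sum was 1221 FPKM at day 0, with 2 of 8 markers at 0. A high sum of this list alone therefore does not mark endoderm cells. *Jdp2* was at 762, 652, 329 and 259 FPKM with BMP4, a difference of 0.15 at day 7. The part of these markers in the AP-1 differences was not tested.

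The response to BMP4 at day 7 was then read in the factor sets with and without *Sall4*. AP-1 genes passed the threshold upwards with BMP4 in JGES and in none of the other 3 sets. The members tested had a median change of 1.22 in JGES, 0.42 in JGESO, -0.03 in JGEO and -0.29 in JGE. All genes tested had medians of -0.13, 0.01, 0.04 and -0.05 in the same order. In the separate table JGES had 5 members higher of 8 tested, where 23.9% of genes were called, JGE had 0 higher and 2 lower, *Fosl1* and *Batf3*, where 9.06% were called, JGEO had none, where 4.21% were called, and JGESO had none, where 8.81% were called. *Junb* was at 28.3 and 91.0 FPKM without and with BMP4 in JGES, at 134 and 153 FPKM in JGE, at 98.4 and 104 FPKM in JGEO and at 55.1 and 76.1 FPKM in JGESO. The JGES library without BMP4 was the lowest of the 8. *Jun* was at 27.4 and 65.3 FPKM in JGES, at 41.0 and 38.3 FPKM in JGE, at 51.3 and 43.7 FPKM in JGEO and at 53.5 and 78.3 FPKM in JGESO. *Fos* was at 4.61 and 12.9 FPKM in JGES, at 14.7 and 10.0 FPKM in JGE, at 6.12 and 8.54 FPKM in JGEO and at 4.25 and 8.04 FPKM in JGESO, a difference of 0.78 in the last that missed the threshold. *Atf3* was at 7.96 and 16.3 FPKM in JGESO, a difference of 0.95 that missed the threshold and passed it with a pseudocount of 0.1, where 15.5% of genes were called. Whether the response differed between the sets was not tested, since each is 1 pair of libraries.

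Without BMP4, 5 of 8 AP-1 genes were lower in JGES than in JGE and none was higher, where 37.0% of genes were called, 20.1% higher and 16.9% lower. They were *Junb* (a difference of -2.21), *Fosl2* (-2.09), *Batf3* (-1.54), *Fos* (-1.48) and *Fosl1* (-1.36). *Fosl2* was at 2.09 FPKM in JGES and 12.2 FPKM in JGE, and *Fosl1* at 2.83 and 8.86 FPKM. Of 17 AP-1 target genes tested 14 were lower and 0 higher in JGES than in JGE. *Mmp13*, a collagenase gene, was at 0.278 FPKM in JGES and 9.16 FPKM in JGE, and *Mmp10*, a stromelysin gene, was listed at 0 in JGES and was at 4.32 FPKM in JGE. With BMP4 the same pair of sets differed in 1 of 8 members, *Fosl1*, which was higher in JGES by 1.05, where 23.2% of genes were called. *Jdp2* itself was at 1722 FPKM in JGE and 228 FPKM in JGES without BMP4, 7 of 8 fibroblast markers and 7 of 7 macrophage markers tested were lower in JGES, and the depth of the JGES pair was lower. The part of each in the AP-1 difference was not tested. The JGES library without BMP4 also enters the response to BMP4 in JGES, so a low value in it moves both differences.

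The sets with *Oct4* were compared in the same way. Between JGESO and JGEO without BMP4 no member of 8 was called, where 28.2% of genes were, and the largest differences were 0.85 in *Atf3*, -0.83 in *Junb* and 0.77 in *Jund*. With BMP4 1 of 8 members was higher in JGESO than in JGEO, *Atf3* at 16.3 and 3.49 FPKM, and 0 were lower, where 29.0% of genes were called, 7.77% higher and 21.2% lower. From 1.5-fold it was 5 higher and 1 lower, *Batf3* at 2.49 and 4.56 FPKM, where 52.4% of genes were called. Without BMP4, JGEO against JGE had 2 members lower, *Fosl1* (-1.60) and *Fos* (-1.14), where 22.1% of genes were called. With BMP4 this pair of sets had 1 of 8 members higher and 0 lower, where 11.8% of genes were called. With scaled libraries it had 0 called, where 11.3% of genes were. JGESO against JGES without BMP4 had 4 members higher, *Jund* (1.35), *Fosl2* (1.31), *Batf3* (1.11) and *Atf3* (1.09). There 49.5% of genes were called and all genes had a median of -0.21. With BMP4 the pair had 1 member higher and 1 lower of 8, where 38.9% of genes were called, and the members had a median of 0.07. *Atf3* was at 7.96 and 16.3 FPKM in JGESO without and with BMP4 and at 1.91 to 4.81 FPKM in the other 6 libraries, so both JGESO libraries lay above all others. *Jund* was likewise highest in the JGESO pair, at 264 and 270.4 FPKM against 103 to 182 FPKM elsewhere. Both JGESO libraries were also the highest in primitive endoderm markers, at 1563 and 1497 FPKM against 335 to 963 FPKM, and in placenta-like markers, at 269.6 and 473 FPKM against 42.1 to 249.5 FPKM, with 0 of 8 and 1 of 8 at 0. They had 1.25 and 0.92 times the depth of JGE without BMP4. The part of these markers or of depth in the values of *Atf3* and *Jund* was not tested. *Fosb* was under 1 FPKM in all 8 libraries.

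**Figure D2:**
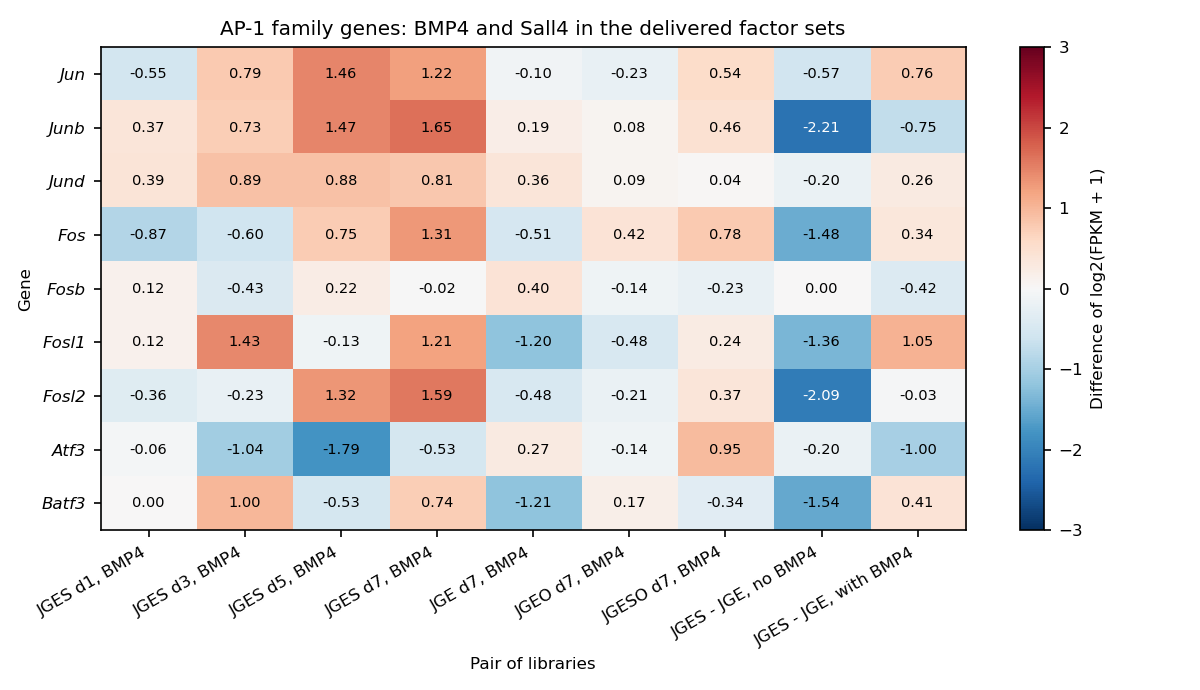
Difference of log2(FPKM + 1) of each AP-1 gene (rows) in 9 pairs of libraries (columns), as colour and as a printed value. The first 7 columns are with minus without BMP4 at the day (d) and in the factor set named, and the last 2 are JGES minus JGE at day 7. *Junb*, *Fos*, *Fosl1* and *Fosl2* are below -1 in JGES minus JGE without BMP4 and above 1 with BMP4 in JGES at day 7. Both differences use the same JGES library without BMP4, so they are not independent.

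In the single-cell data the AP-1 genes were read from UMI counts summed over the cells of each deposited cell type, scaled to the total UMIs of that group of cells (CPM). The sample with BMP4 held 11335 cells with a median of 21205 UMIs, the sample without 8685 cells with a median of 12738, and 2 barcodes occurred in both. Each sample is 1 culture, and the 95% Poisson and exact binomial (Clopper-Pearson) intervals cover counting error only. The deposited label ParE was given to 2372 cells with and 142 cells without BMP4, whose primitive endoderm markers summed to 3476 and 2868 CPM with 0 of 8 at 0, above every other type of their sample, the nearest being Intermediate cells with BMP4 at 1922 CPM. The Pluripotent cells, all 1825 of them without BMP4, had 7272 CPM of the pluripotency markers, the Endothelial cells 1009 and 564 CPM of the endothelial markers with and without BMP4, and the Placenta-like cells, found with BMP4 only, 2899 CPM of the placenta-like markers. Markers of other types were present as well: without BMP4 the ParE cells had 885 CPM of the pluripotency markers, and the Endothelial cells 318 CPM of these and 355 CPM of the primitive endoderm markers. With BMP4 the ParE cells had 925 CPM of the placenta-like markers, and the Endothelial and Placenta-like cells 795 and 627 CPM of the primitive endoderm markers. The rest were labelled Intermediate state. With and without BMP4 these had 727 and 167 CPM of the fibroblast markers, 1922 and 200.2 CPM of the primitive endoderm markers and 20.2 and 367 CPM of the pluripotency markers, so the label covers cells of another makeup in each sample, and its part in the AP-1 values was not tested.

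Over all cells, 7 of 7 AP-1 genes tested (at least 5 CPM in either sample) were at least 2-fold higher with BMP4 and none was lower, where 35.3% of 10295 genes were called, 29.8% higher and 5.48% lower. Of the 7, *Jun*, *Junb*, *Jund* and *Fos* reached 5 CPM in both samples. *Fosb*, *Fosl2* and *Atf3* reached it only with BMP4, so the minimum itself favours a higher value for them and the count of 7 is no support for a direction. All genes were shifted, with a median log2 ratio of 0.58, and the members had a median of 1.47. Ribosomal protein genes took 26.3% of UMIs with and 44.0% without BMP4, so the values of all other genes move with that share. Relative to the median of all genes, 3 of the 7 were past 2-fold, *Fosb* (3.16), *Jun* (1.47) and *Junb* (1.26), where 24.4% of genes were, and *Atf3* (0.89), *Fosl2* (0.86), *Jund* (0.65) and *Fos* (0.51) were not.

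*Fosb* showed the largest ratio of the members tested. It was at 34.0 CPM with BMP4 (95% interval 33.3 to 34.7) and at 2.55 CPM without (2.28 to 2.85), a ratio of 13.3 (11.9 to 15.0). *Jun* was at 179 CPM with (178 to 181) and 43.2 CPM without (42.1 to 44.4), a ratio of 4.15. *Junb* was at 149 and 41.5 CPM, a ratio of 3.58. *Jund*, *Fos*, *Fosl2* and *Atf3* had ratios between 2.13 (*Fos*, at 67.7 and 31.8 CPM) and 2.77 (*Atf3*, at 7.45 and 2.69 CPM). *Batf3* was at 4.90 and 4.30 CPM and *Fosl1* at 2.94 and 0.341 CPM, under the minimum for a call. In the bulk libraries of the same day and condition *Fosb* was at 0.177 and 0.193 FPKM with and without BMP4, *Atf3* at 1.95 and 3.28 FPKM and *Jdp2* at 259 and 234 FPKM, while *Jdp2* in single cells was at 83.4 and 8.20 CPM. The single-cell values of these 3 genes were higher with BMP4 by 2.77 to 13.3 times, and the bulk values did not follow. What sets them apart was not tested.

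Within cell types the members called were likewise higher with BMP4. Among Intermediate cells 6 of 7 members tested were higher and none was lower (34.8% of genes called), *Batf3* being at 3.98 and 5.36 CPM with and without BMP4. Among Endothelial cells 3 of 7 were higher, *Jun*, *Junb* and *Fosb* (29.5% of genes called), and among ParE cells 4 of 7, *Jun*, *Junb*, *Fos* and *Fosb* (32.3% of genes called). Relative to the median of all genes these counts were 3 of 7 in Intermediate, 2 of 7 in Endothelial and 1 of 7 in ParE cells, where 27.3%, 20.3% and 22.3% of genes were past 2-fold, so that the Endothelial and ParE counts are near the share of all genes. *Fosb* was past 2-fold on that scale in all 3 types, *Jun* in Intermediate and Endothelial cells and *Junb* in Intermediate cells. Here too *Fosb* in all 3 types and *Fosl2* in Intermediate cells reached the minimum only with BMP4. The value of *Fosb* in ParE cells rests on 2 UMIs without BMP4, against 2217 with BMP4, a ratio of 34.1 with a counting interval of 9.43 to 282. For calls, sums under 3 UMIs were set to 3.

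In the sample without BMP4 the Pluripotent cells had the lowest CPM of each of the 6 members *Jun*, *Junb*, *Jund*, *Fos*, *Fosl2* and *Atf3*. *Fosb* was lowest there too, at 0.674 CPM, beside 1.06 CPM in ParE cells from 2 UMIs. *Fosl1* and *Batf3* were lowest in ParE cells, at 0 and 0.529 CPM. How many of all genes were lowest in Pluripotent cells was not computed, so the count says nothing about the family as a set. *Jun* was at 9.74 CPM (8.65 to 10.9) in Pluripotent and 54.3 CPM (52.7 to 55.9) in Intermediate cells, a ratio of 0.179, and *Fos* at 8.39 (7.38 to 9.50) and 42.3 CPM (40.9 to 43.7), a ratio of 0.198. The *Fos* interval overlaps that of the ParE cells without BMP4 (12.7 CPM, 8.13 to 18.9), so these are not told apart. *Jund* kept the largest share, at 116 CPM against 260.3 CPM, a ratio of 0.447. *Fos* was highest in Intermediate cells of both samples, at 92.2 CPM with BMP4 against 29.0 to 32.5 CPM in the other 3 types, whose counting intervals overlap. *Junb* with BMP4 was at 193 CPM in Intermediate, 119 CPM in Endothelial, 82.0 CPM in Placenta-like and 61.9 CPM in ParE cells, each step larger than the counting intervals.

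The ATF and BATF members had another order of cell types. *Atf3* with BMP4 was at 12.7 CPM in ParE and 12.6 CPM in Endothelial cells, whose intervals overlap, at 9.60 CPM in Placenta-like cells, whose interval (7.92 to 11.5) reaches that of Endothelial cells, and at 4.19 CPM in Intermediate cells. *Batf3* was at 25.9 CPM (23.1 to 29.0) in Placenta-like cells and at 2.67 to 5.90 CPM in the other types, a ratio of 6.51 to Intermediate cells. *Fosl2* was likewise highest in Placenta-like cells, at 22.9 CPM (20.3 to 25.8) against 4.95 to 8.76 CPM. *Fosl1* was at 4.40 CPM in Intermediate cells and at 0.635 to 0.945 CPM in the other 3 types, and 0 of its UMIs were found in the ParE cells without BMP4, where 3 UMIs would be 1.59 CPM. *Jdp2* with BMP4 was at 117 CPM in Intermediate and 15.7 CPM in ParE cells.

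**Figure D3:**
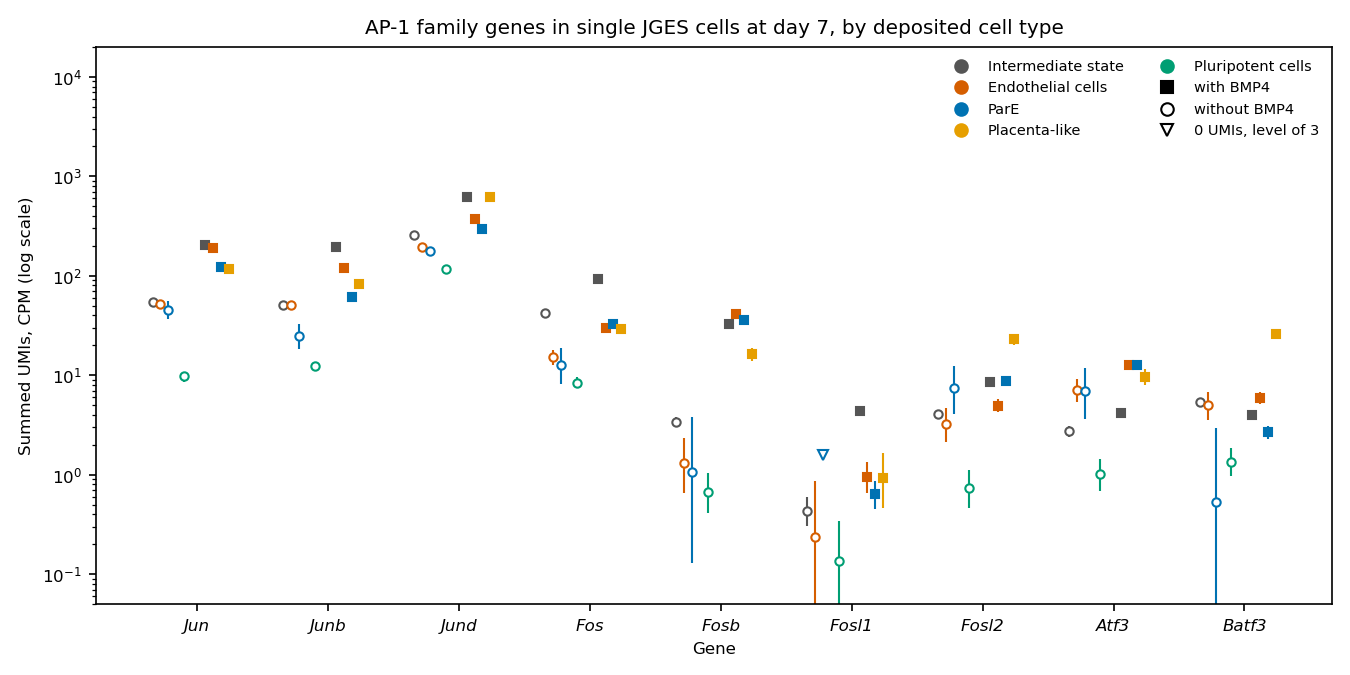
UMIs of each AP-1 gene summed per deposited cell type, in CPM on a log axis, with filled squares for JGES day 7 with BMP4 and open circles without. Colours give the cell type, bars the 95% Poisson interval (counting error only), and the open triangle the level of 3 UMIs where none was counted. *Jun*, *Junb*, *Jund*, *Fos*, *Fosl2* and *Atf3* are lowest in the Pluripotent cells, for *Fos* with an interval that overlaps that of ParE cells without BMP4.

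Shares of cells were compared after each cell was thinned to 4000 UMIs, a depth that all cells of both samples reached. A *Jund* UMI was then found in 78.4% of cells with BMP4 (77.6 to 79.1%) and 52.6% without (51.5 to 53.6%), against 98.1% and 83.8% before thinning. *Jun* had a UMI in 43.7% and 15.2% of cells, against 80.8% and 34.2% unthinned, and *Fosb* in 12.4% and 1.19%, against 34.9% and 3.35% unthinned. A cell with BMP4 had UMIs of 2.02 of the 9 members on average and a cell without of 0.983, and 8.25% and 33.6% of cells had none. Thinning makes only the total UMIs equal. Mitochondrial and ribosomal protein genes took 29.0% of UMIs with and 47.6% without BMP4, which leaves fewer for other genes without BMP4. No share of all genes is given beside these values, so between the samples they are no support for a direction. Of the Pluripotent cells 58.7% had none, against 26.2% of the Intermediate cells of the same sample. In Pluripotent cells *Jun* was found in 3.67% (2.86 to 4.64%) and *Fos* in 3.01% (2.28 to 3.90%), and in Intermediate cells without BMP4 in 18.2% and 15.1%. At a median of 15444 and 11892 UMIs the Pluripotent cells were the deeper of the pair, and what share free RNA gives in them was not tested.

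*Fos* and *Fosb* tended to be found in the same cells. Among Intermediate cells with BMP4 and a *Fos* UMI, 22.8% had a *Fosb* UMI, against 8.31% of those without a *Fos* UMI, and in ParE cells the shares were 29.1% and 10.6%. For *Jun* the shares in Intermediate cells were 52.5% and 44.9%, for *Junb* 55.5% and 40.6% and for *Jund* 87.0% and 84.7%. In ParE cells with BMP4 they were 50.5% and 29.7% for *Jun*, 27.3% and 17.9% for *Junb* and 69.5% and 62.3% for *Jund*. Without BMP4, 0% of the 32 Endothelial and 55 Pluripotent cells with a *Fos* UMI had a *Fosb* UMI, against 0.421% and 0.169% of the others. These are descriptions of cells of 1 culture. Around the members, 12 of 13 AP-1 target genes tested were higher with BMP4 over all cells and 0 lower (median 2.14). So were 5 of 9 immediate-early companions (median 1.06) and 3 of 8 dissociation and heat shock genes (median 0.68). Of all genes 29.8% were called higher and 5.48% lower, with a median of 0.58. Of 13 upstream kinases and cofactors 1 was higher (median 0.29), and of 6 feedback phosphatases and inhibitors 0 were higher and 1 was lower (median 0.08). *Mmp9* was at 30.3 CPM with and 3.38 CPM without BMP4, and *Mmp13* at 7.03 and 0.317 CPM. Both reached 5 CPM only with BMP4, so the minimum favours a higher value for such targets and their count is no support for a direction. *Hspa1a*, a heat shock gene of the dissociation list, was at 4.53 and 0.487 CPM, and the part of dissociation in the AP-1 values was not tested.

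With SALL4 alone and no delivered *Jdp2*, *Junb* stayed at 229 FPKM or above with SALL4-WT and was at 77.4 to 128 FPKM with SALL4-delN12. *Fos* and *Jun* were not lower at day 11 than at day 1 with either form. *Jdp2* was at 10.3 to 17.8 FPKM with SALL4-WT and at 12.4 to 21.5 FPKM with SALL4-delN12, against 234 to 947 FPKM in JGES. Between days 1 and 11 of SALL4-WT, *Fos* was higher and *Fosl1* lower at day 11, 1 member higher and 1 lower of 9 tested, where 20.2% of genes were called, a count near the share of all genes. In SALL4-delN12 *Fos* and *Batf3* were higher and *Fosl1* was lower, 3 of 9 tested, where 15.0% of genes were called. These libraries have no day 0 of their own, and they were deeper than the JGES libraries, so levels of the sets are given side by side only.

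With the form without the N-terminal stretch *Atf3* was higher than with SALL4-WT past 2-fold at all 4 days, and *Junb* was lower past 2-fold at days 5, 9 and 11. *Junb* was at 239, 259, 258 and 229 FPKM with SALL4-WT at days 1, 5, 9 and 11 and at 128, 106, 77.4 and 111 FPKM with SALL4-delN12. All 4 values of SALL4-delN12 lay below all 4 of SALL4-WT, with differences of -0.90 at day 1, short of the threshold, and of -1.28, -1.72 and -1.03 at the later days. *Atf3* was at 3.61, 2.26, 1.81 and 2.85 FPKM with SALL4-WT and at 8.45, 5.84, 6.53 and 13.3 FPKM with SALL4-delN12. Here all 4 values of SALL4-delN12 lay above, with differences of 1.04, 1.07, 1.42 and 1.89.

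*Fosl2* was at 23.9, 16.8, 22.7 and 21.7 FPKM with SALL4-WT and at 16.8, 13.9, 12 and 15.9 FPKM with SALL4-delN12, 4 values below those of SALL4-WT by margins that passed no threshold on any day (-0.26 to -0.87) and with the nearest pair equal to 3 digits. Over the 4 days, 3 of the 9 members thus did not overlap between the forms, 2 below and 1 above, where 13.4% of 14741 genes did not overlap, 7.44% below and 5.96% above. The days of a form are not replicates of each other.

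*Fos* and *Fosb* differed in the middle of the course. *Fos* was at 26.0, 85.4, 65.7 and 74.0 FPKM with SALL4-WT and at 21.6, 32.9, 15.7 and 49.8 FPKM with SALL4-delN12, lower on each day and past 2-fold at days 5 (-1.35) and 9 (-1.99). *Fosb*, which was under 1 FPKM in every JGES library, was at 0.877, 4.02, 3.65 and 2.30 FPKM with SALL4-WT and at 0.885, 0.895, 0.867 and 2.38 FPKM with SALL4-delN12. The forms met at days 1 and 11 and were apart by -1.4 and -1.32 at days 5 and 9.

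*Jun* was at 31.7, 61.1, 62.6 and 52.3 FPKM with SALL4-WT and at 35.2, 43.5, 36.4 and 50.7 FPKM with SALL4-delN12, and no day passed the threshold. *Jund* was at 131 to 145 FPKM with SALL4-WT and at 117 to 152 FPKM with SALL4-delN12, ranges that overlap. *Fosl1* was at 45.3, 11.5, 33.8 and 10.5 FPKM with SALL4-WT and at 41.8, 15.7, 18.5 and 6.51 FPKM with SALL4-delN12, highest at day 1 in both. *Batf3* was at 1.35, 2.25, 1.26 and 0.889 FPKM with SALL4-WT and at 1.19, 1.76, 2.30 and 3.48 FPKM with SALL4-delN12, and passed the threshold at day 11 (1.25).

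Counted by day, 1 member was higher and 0 lower in SALL4-delN12 at day 1 of 8 tested, where 9.81% of genes were called. At day 5 it was 1 higher and 3 lower of 9, where 9.86% were called, at day 9 it was 1 higher and 3 lower, where 11.8% were called, and at day 11 it was 2 higher and 1 lower, where 13.1% were called. *Fosb*, 1 of the 3 lower at days 5 and 9, reached 1 FPKM only with SALL4-WT, and *Batf3*, 1 of the 2 higher at day 11, only with SALL4-delN12, so the minimum set the direction of these calls. The immediate-early companions were lower at day 9 in 9 of 14 and higher in 0 (median -1.14), with *Egr1* at 6.72 FPKM in SALL4-delN12 and 52.3 FPKM in SALL4-WT and *Myc* at 1.88 and 8.64 FPKM. Of 7 feedback phosphatases and inhibitors 3 were lower, among them *Dusp6* at 20.5 and 103 FPKM. AP-1 target genes were split at that day, with 4 higher and 5 lower of 17: the growth factor genes *Areg* and *Hbegf* were at 0.211 and 8.00 FPKM in SALL4-delN12 and 14.2 and 45.6 FPKM in SALL4-WT, and *Mmp9* at 26.2 and 6.50 FPKM.

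Markers of other cells moved with the forms. Macrophage markers were higher in SALL4-delN12 in 7 of 7 tested at days 9 and 11, and their summed FPKM, with 0 of 8 at 0, was 163 to 385 with SALL4-WT and 342 to 1009 with SALL4-delN12. Placenta-like markers summed to 110.3 to 149 FPKM and 552 to 745 FPKM, with *Krt8* at 31.8 and 169 FPKM at day 11, 0 to 2 of 8 at 0 with SALL4-WT and 0 of 8 with SALL4-delN12. Primitive endoderm markers were higher in 5 of 8 at day 11, with *Sox17* at 0.224 and 16.2 FPKM. Fibroblast markers summed to 1145 to 1975 FPKM and 1904 to 2456 FPKM. The part of these cells in the values of *Junb*, *Atf3* or *Fos* was not tested.

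**Figure D4:**
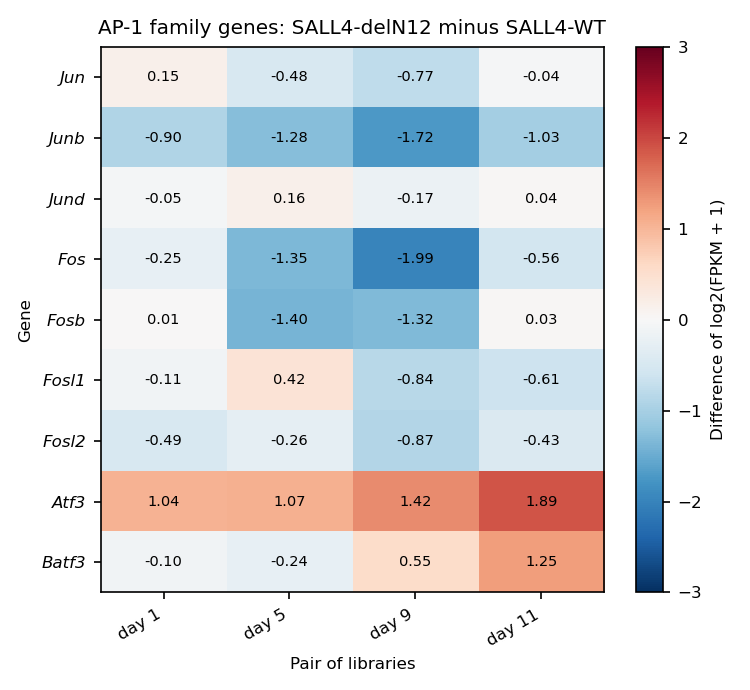
Difference of log2(FPKM + 1), SALL4-delN12 minus SALL4-WT, of the 9 AP-1 genes (rows) at 4 days (columns), as colour and as a printed value, with 1 library per form and day. *Junb* is below 0 and *Atf3* above 1 at all 4 days, and *Fos* reaches -1.99 at day 9.

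For 8 of the 9 members the gene with the most similar log2(FPKM + 1) over the 17 libraries of the time courses was looked up among 12351 genes, as a description, since the libraries fall into a JGES set and a SALL4-alone set. These were *Ficd* for *Jun* (r = 0.882), *Atg3* for *Junb* (0.892), *Coro6* for *Jund* (0.849), *Lxn* for *Fos* (0.924), *Pvalb* for *Fosb* (0.960), *Oaf* for *Fosl1* (0.925), *Sirpa* for *Atf3* (0.929) and *Naglu* for *Batf3* (0.873).

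Chromatin at the AP-1 genes was open in MEFs, and at 8 or 9 of the 9 members also in each library with SALL4. An ATAC peak lay within 2 kb of a start of all 9 members in 7 of 9 libraries, and of 8 members in SALL4-WT day 1 and SALL4-delN12 day 5, where *Batf3* had none, beside 60.3 to 68.5% of all 21864 genes. The highest peak of *Jun* had a MACS score of 1668 in MEFs and of 609.8 to 1124 in the other 8 libraries, and that of *Fosl2* 2269.7 in MEFs and 374 to 1433 elsewhere. *Junb* had a score of 497 in MEFs, of 166 to 672 with SALL4-WT and of 221 to 379.8 with SALL4-delN12, so the ranges overlap. Its highest peak was not at the same place in all libraries. It was centered at position 2367 in MEFs, at 1324 to 2852 with SALL4-WT and at -1155 to 2272 with SALL4-delN12. These scores therefore do not compare 1 site. *Atf3* had 1902 in MEFs, 687 to 1225 with SALL4-WT and 742 to 1083 with SALL4-delN12. A score is minus 10 times log10 of a peak's p-value and grows with depth, so scores of different libraries are set side by side only.

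SALL4 peaks were found at many of the same starts. At day 6, 6 of 9 members had a SALL4 peak within 2 kb with SALL4-WT and 8 of 9 with SALL4-delN12, beside 54.2% and 40.8% of all genes. This order turned with stricter settings, to 6 and 5 members within 1 kb, beside 51.0% and 37.7% of genes, and to 5 and 4 members for peaks with a score of at least 100, beside 40.9% and 27.7%. *Junb* had none with SALL4-WT and one with a score of 109 with SALL4-delN12. *Atf3* had a peak in both, with scores of 141 and 341, centered at positions 1427 and 1716 from a start. *Fos* had 173 and 66.7, but from different places, centered at positions -511 and 3659, so these 2 scores are not of the same site. Over its CArG box the scores were 173 with SALL4-WT and 63.7 with SALL4-delN12. *Batf3* had no peak in either. H3K27ac peaks lay at 5 members with SALL4-WT and 6 with SALL4-delN12, beside 49.5% and 58.8% of genes. *Atf3* had H3K27ac scores of 84.0 and 255 and *Fos* of 343 and 322 in SALL4-WT and SALL4-delN12. *Junb*, *Jund* and *Fosl2* had no H3K27ac peak in either form, although their RNA was at 106 to 259, 136 to 152 and 13.9 to 16.8 FPKM at day 5.

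The AP-1 heptamer lay at the center of open sites of all libraries. Within 50 bp around the peak center it was found in 8.18% of 125454 MEF peaks. With SALL4-WT the share was 9.38, 10.8, 11.6 and 8.44% at days 1, 5, 9 and 11, and with SALL4-delN12 it was 12, 10.6, 10.7 and 7.45%. Windows of the same length 1 kb downstream of the peaks had it in 0.769 to 0.846%. The share was above that of MEFs in 7 of the 8 SALL4 libraries and lowest in SALL4-delN12 day 11, which also had the fewest peaks (78491). This order depends on the peaks taken. Among the 10000 highest-scoring peaks of each library the share was 3.05% in MEFs, 2.05% and 2.23% at day 11 of SALL4-WT and SALL4-delN12, and 3.49 to 5.75% in the other 6 libraries. Within 200 bp around the center both day 11 libraries, at 20.9% and 19.3%, were also below the 21.5% of MEFs.

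Open sites of MEFs were looked up again in the SALL4 libraries, a comparison chosen after the motif shares had been seen. With SALL4-delN12 day 1, 60.5% of the 10266 MEF peaks with the heptamer were met by a peak, against 47.0% of the 115188 peaks without it, and with SALL4-WT day 1 the shares were 41.1% and 38.9%. At day 11 the order was the other way, with 43.7% and 49.4% for SALL4-WT and 35.4% and 43.9% for SALL4-delN12. At days 5 and 9 the shares were 49.9% and 48.9%, and 52.8% and 47.7%, for SALL4-WT, and 51.2% and 45.2%, and 54.2% and 48.8%, for SALL4-delN12. Among MEF peaks with a score at or above the median, the share met again was lower with the heptamer than without it at all 4 days of SALL4-WT, with 54.2% and 57.6% at day 1, and at days 1, 5 and 9 it was higher with the heptamer under the median. For SALL4-delN12 day 1 the order held in both parts, with 77.9% and 69.3% at or above the median and 44.5% and 24.6% under it. It also held in both parts at days 5 and 9, by little at or above the median (68.0% and 66.9%, and 71.1% and 70.4%). At day 11 of SALL4-delN12 the share was lower with the heptamer in both parts, with 52.0% and 65.6%, and 20.1% and 22.1%. Single sites differed too. The heptamer upstream of *Mmp13* shown above lay under an ATAC peak in 6 of 9 libraries, MEFs, all 4 days of SALL4-delN12 and day 11 of SALL4-WT, and *Mmp13* RNA was at 102 FPKM in SALL4-delN12 and 34.2 FPKM in SALL4-WT at day 11. That of *Mmp10* lay under a peak in 7 of 9 libraries and under SALL4 peaks with scores of 64.8 in SALL4-WT and 512 in SALL4-delN12. The heptamer inside *Fosl1* lay under a peak in 4 of 9, and that upstream of *Plaur* in 9 of 9. The ATAC and CUT&Tag libraries are from cells with SALL4 alone, and JGES cells were not measured by them.

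**Figure D5:**
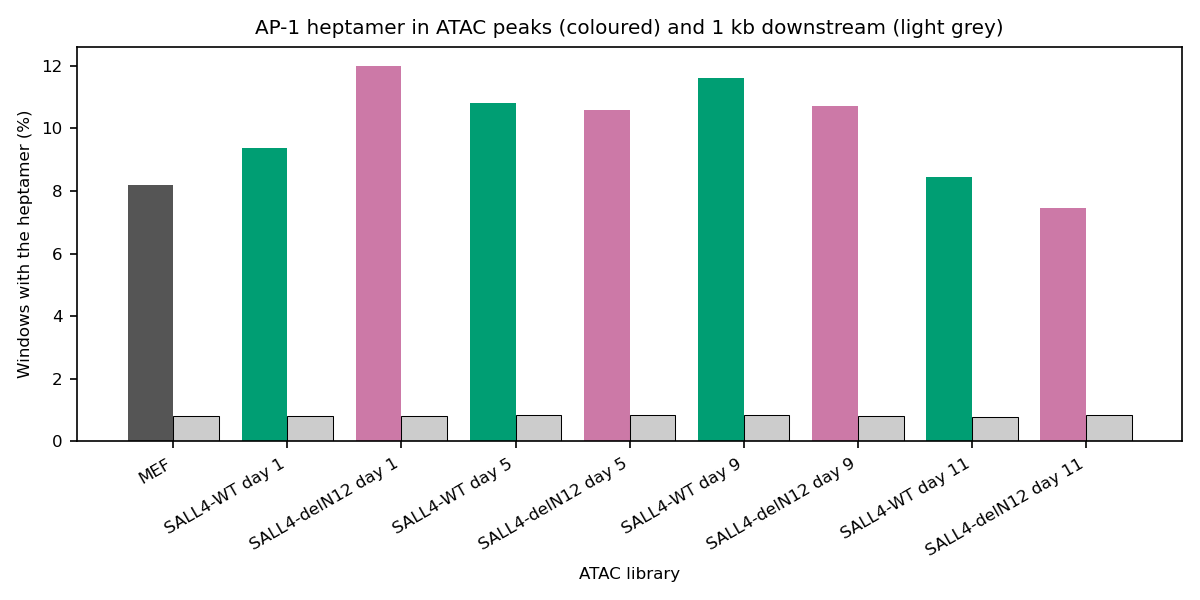
Share (percent, axis from 0) of ATAC peaks with TGAGTCA or TGACTCA within 50 bp around the peak center (coloured bars, by library) and of windows of the same length 1 kb downstream (light grey bars). The peaks hold the heptamer in 7.45 to 12% and the windows in 0.769 to 0.846%.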

How the data were processed

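Bulk RNA-seq (23 libraries), single-cell RNA-seq (2 samples), ATAC-seq (9 libraries) and CUT&Tag (4) were used, with groups from the labels. The authors deposited FPKM per gene from HISAT2 2.2.1 and StringTie 2.2.1 (mm10) in 2 tables, which were not compared with each other. The day 7 JGES pair is in both tables, and its second copy is 0.975 and 0.978 times the first. The authors deposited UMI counts per cell (STAR, GENCODE annotation) with their cell types, and 10749 columns of other work were not used. Doublets were not called here. The deposited ATAC and CUT&Tag peak lists hold a MACS 1.4.2 score per peak (mapping by Bowtie2 2.4.5), and the CUT&Tag peaks come from pooled replicates. Differences of log2(FPKM + 1) and ratios of summed CPM were computed with pandas 2.3.3 and numpy 2.4.6 in Python 3.11.15, intervals with scipy 1.17.1, and the script was tested on simulated data. The study's GFOLD was not used. Peak overlap was at least 1 bp. All 9 members are named, and of each list the counts, the median and up to 4 members furthest past 2-fold. A few genes and sequences that this rule names are not reported here. The family, as a subject, and the lists were chosen with earlier results of these data known. Alternatives were a pseudocount of 0.1, scaled libraries, no filter, 1.5-fold, other denominators and depths for single cells, and other windows and scores for peaks.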

Additional observations from a re-analysis of the deposited data

Results flagged for a closer look

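For *Fos*, the effect of BMP4 in JGES had opposite signs at early and late days. With minus without BMP4 it was -0.87 at day 1 and -0.60 at day 3, and 0.75 at day 5 and 1.31 at day 7. *Fosl1* was higher with BMP4 in JGES (1.21) and lower in JGE (-1.20), and so was *Batf3* (0.74 in JGES and -1.21 in JGE). Each sign comes from 1 pair of libraries, and the difference between the pairs was not tested.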

How the results depend on the processing

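No difference of a member between bulk libraries changed sign past 2-fold among 306 values, either when libraries were scaled to the same median ratio or with a pseudocount of 0.1. From 1.5-fold in place of 2-fold, with the share of all genes called at 1.5-fold in brackets, the members called were 4 (46.3%) for JGES with BMP4 day 7 against day 0, 1 (22%) and 7 (33.2%) for BMP4 at days 1 and 3, 2 (25.8%) for BMP4 in JGESO, 3 (52.4%) and 6 (52.4%) for JGESO against JGEO without and with BMP4 and 4 (46.1%) for JGES against JGE with BMP4. With SALL4 alone they were 4 (42.7%) and 5 (31.6%) for day 11 against day 1 of SALL4-WT and SALL4-delN12, and 2 (22%) and 7 (25.6%) for SALL4-delN12 against SALL4-WT at days 1 and 9. With scaled libraries 1 member was called for BMP4 at day 3 (15.5% of genes) and 1 for JGESO against JGEO without BMP4 (26.0%), and with a pseudocount of 0.1 it was 1 for BMP4 in JGESO (15.5%) and 2 for JGES against JGE with BMP4 (32.4%). Without mitochondrial and ribosomal protein genes in the single-cell denominator, 4 members were called over all cells, 3 in Intermediate and 1 in ParE cells, where 25%, 27.4% and 22.6% of genes were, and relative to the median of all genes, an alternative chosen after seeing the data, 3, 3 and 1, where 24.4%, 27.3% and 22.3% of genes were. Without thinning, 7 members had a UMI in a larger share of Endothelial cells with BMP4 and 8 of ParE cells. Cells with BMP4 were deeper, with medians of 21763 against 15083 UMIs in Endothelial cells and 23772 against 11562 in ParE cells. Unthinned shares grow with depth and no share of all genes is given beside these 2 counts, so they are no support for a direction. With SALL4-delN12 5 members had a SALL4 peak within 1 kb and 4 one with a score of at least 100, against 6 and 5 with SALL4-WT. H3K27ac peaks of that score lay at 3 members with SALL4-WT and 4 with SALL4-delN12, beside 39.7% and 53.1% of genes. The causes of these moves were not tested. A model of treatment and day, or of SALL4 form and day, over the 4 matched days could have been fitted and was not. Reads behind FPKM and peaks are unknown, so low values such as those of *Fosb* and *Batf3* carry no interval.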
